A study of Homo sapiens with 4 samples.

Results

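Daoy is an established human medulloblastoma line, and 9 of its genes for enzymes that make or remove reactive oxygen species are described here out of 59384 gene names in the count table. The 9 are the glutathione peroxidases GPX1, GPX3, GPX4, GPX7 and GPX8, the superoxide dismutases SOD1 and SOD2, catalase (CAT) and CYBA, a subunit of NADPH oxidases. They were chosen by gene name, and the choice followed earlier results of the same 4 libraries in which GPX1 and CYBA were among the abundant genes with lower values in shFABP4 cells. Every shFABP4 against pLKO value of the 9 is therefore a description and carries no p-value. RNA sequencing was done on wild-type cells infected with the pLKO control virus (2 libraries) and on FABP4 knockdown cells infected with the shFABP4 virus (2 libraries), so both groups carry a lentivirus. All 4 libraries come from this single line, and the hairpin sequence, any drug selection and the time after infection are not given in the sources used here. No label says whether a group's libraries were grown separately, so the p-values below reflect the spread among these 4 libraries alone, and it may be technical.

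Superoxide is made by NADPH oxidases and as a by-product of respiration. Dismutases turn it into hydrogen peroxide, which catalase and glutathione peroxidases reduce to water. GPX1 acts on hydrogen peroxide in the cytosol and mitochondria, GPX4 on lipid hydroperoxides in membranes, where it protects cells from ferroptosis, and GPX3 is secreted. GPX7 and GPX8 sit in the endoplasmic reticulum. CYBA, also called p22phox, is the membrane partner that stabilises several NADPH oxidases and is best known from phagocytes, where it pairs with CYBB.

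The family splits by the residue at the active site, which is read directly from the coding sequence. GPX1, GPX3 and GPX4 carry an in-frame TGA that is decoded as selenocysteine, whereas GPX7 and GPX8 carry a TGC cysteine codon at the aligned place. The 30-base windows below, from GENCODE 29 transcripts on GRCh38, show that codon in capitals, and they are given because GPX1 and GPX4, which are set against each other below, share the TGA. The windows lie in coding exons at chr3:49358120-49358149 (GPX1, minus strand, exon 1, codon 49), chr19:1105388-1105417 (GPX4, plus strand, exon 3, codon 73), chr5:151025454-151025483 (GPX3, plus strand, exon 2, codon 73), chr1:52606699-52606728 (GPX7, plus strand, exon 2, codon 57) and chr5:55161009-55161038 (GPX8, plus strand, exon 2, codon 79).
GPX1: aatgtggcgtccctcTGAggcaccacggtc
GPX4: aacgtggcctcccagTGAggcaagaccgaa
GPX3: aacgtggccagctacTGAggcctgacgggc
GPX7: aatgtggccagcgagTGCggcttcacagac
GPX8: aacgtggccagtgacTGCcaactcacagac

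The libraries differed in depth and make-up, and this touches every value of shFABP4 1. The pLKO libraries held 8988961 and 13839885 fragments, shFABP4 1 held 2539862 and shFABP4 2 held 20431660. A fragment was counted in 22350 to 25560 gene names in pLKO 1, pLKO 2 and shFABP4 2 but in 51762 in shFABP4 1, the shallowest library. A background rate was taken for shFABP4 1 from coding genes that were at 0 everywhere else. It was 3.81 to 18.9 fragments per kb of exon, rising with GC content, and came to 54.5% of that library. FABP4, the targeted gene, had 1 and 6 pLKO fragments, 14 in shFABP4 1, where background predicts 5.21, and none in shFABP4 2. These counts do not check the knockdown, and the spread of background between genes was not worked out. The shFABP4 1 count, although above its prediction, therefore decides nothing about its label. The name stands here for the library so labelled. Of 9 markers listed for the line, VIM (13811 and 21475 fragments) and CD44 (2975 and 4573) were the abundant ones in pLKO, and neither is specific to it. The cerebellar and medulloblastoma factors ATOH1 and OTX2 were at 0 and ZIC1 and SOX2 at 0 to 3 fragments outside shFABP4 1. The remaining line markers were detected at low counts. In pLKO, NES had 35 and 69 fragments, GLI2 17 and 23, and GLI3 25 and 51. In shFABP4 2 they had 180, 187 and 135. Their shFABP4 1 counts were 171, 265 and 73, where background predicts 90.1, 145.7 and 146. The epithelial keratins KRT8 (9068 and 14078) and KRT18 (8509 and 13435) were abundant in pLKO. The remaining epithelial markers were near 0 there, with EPCAM at 2 and 10 fragments, CDH1 at 0 and 2, and KRT5 at 0 and 2. The 5 epithelial markers summed to 1956 and 1989 CPM in pLKO, 648 in shFABP4 1 and 3424 in shFABP4 2, and the 9 line markers to 1876, 1893, 1521 and 6970. Their part in the results was not tested.

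In the control cells GPX1 was the most abundant of the 9 by far. As FPKM (fragments per kb of exon, scaled to the library total), a unit that allows levels of different genes to be compared, GPX1 stood at 2728 and 2669 in the 2 pLKO libraries. CYBA followed at 553 and 612, and GPX4 at 219 and 213. SOD1, the copper and zinc dismutase of the cytosol, was at 84.4 and 85.9 and GPX8 at 35.6 and 31.9 in FPKM. CAT, the peroxisomal enzyme, was at 4.88 and 4.64. SOD2, the manganese dismutase of the mitochondrial matrix, was at 3.59 and 3.74, a level set low by the 18144 bases of merged exon that its fragments are divided by. GPX3 was at 0.0704 and 0.0229, and GPX7 had no fragment. In this order no neighbours from GPX1 to GPX3 had overlapping values across both pLKO libraries. GPX7 with no fragment allows up to 0.334 and 0.217 CPM (counts scaled to the library total) in pLKO, counting error only.

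The order was different in the shFABP4 libraries. In shFABP4 2, GPX4 came first at 304 FPKM, ahead of GPX1 at 267 and SOD1 at 206. GPX8 (91.8) and CYBA (89.4) lay below these, and CAT (11.8) and SOD2 (11.6) were nearly equal. In shFABP4 1, SOD1 (70.2), GPX4 (68.1) and GPX1 (62.5) led, before any allowance for background. GPX1 thus exceeded GPX4 in both pLKO libraries and in neither shFABP4 library.

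**Figure D1:**
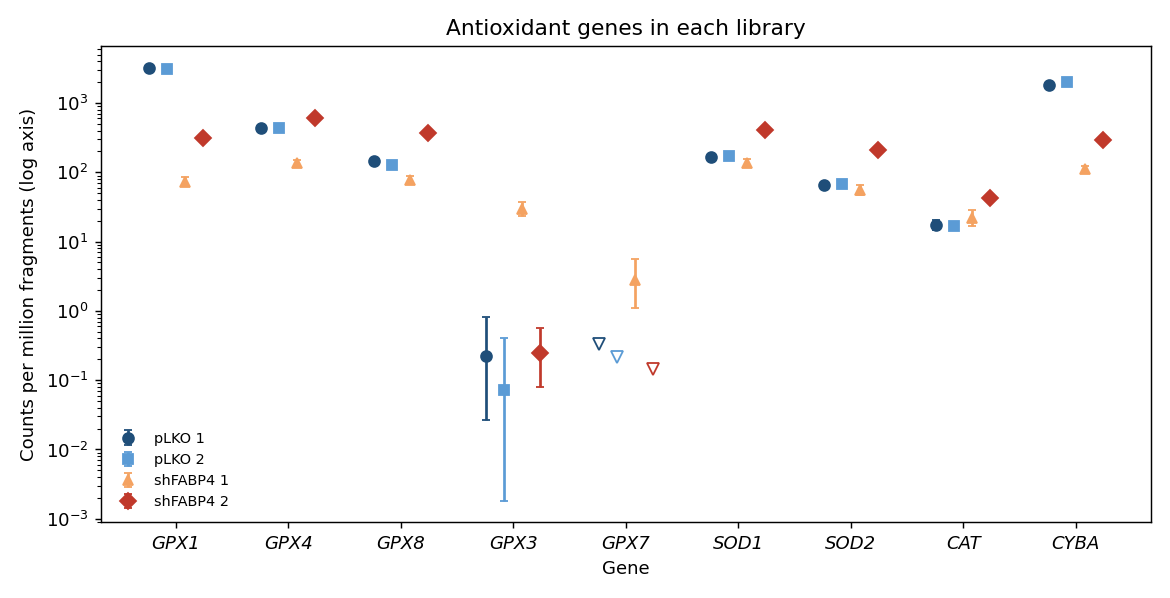
CPM (log axis) of the 9 genes in each of the 4 libraries, with exact 95% Poisson intervals; open triangles mark the limit that a count of 0 allows. GPX1 and CYBA lie lower in both shFABP4 libraries than in both pLKO libraries, as do 15.9% of all tested genes. The other tested members lie higher in shFABP4 2 than in pLKO.

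GPX1 and CYBA were the members with low values in both shFABP4 libraries. GPX1 (chr3:49357176-49358353, minus strand, 1178 bases of exon) had 28886 and 43514 fragments in pLKO, only 187 in shFABP4 1 and 6422 in shFABP4 2. As CPM this was 3213 and 3144 against 73.6 (95% Poisson interval 63.5 to 85.0) and 314 (307 to 322), intervals that cover counting error only. Both shFABP4 libraries lay below both pLKO libraries, as they did for 15.9% of all tested genes on plain CPM. The shFABP4 libraries differed from each other by more than counting error. Background predicts 22.2 of the 187 fragments of shFABP4 1, and the processed copy GPX1P1 held 16, 28, 1 and 22 fragments in the order pLKO 1, pLKO 2, shFABP4 1 and shFABP4 2. With scaling by the trimmed mean of M values (TMM), GPX1 averaged 4344 ± 48.1 CPM (SD, n = 2) over the pLKO libraries and 206 ± 222 (SD, n = 2) over the shFABP4 libraries, and its fitted log2 fold change was -4.40 (SE 1.59, edgeR).

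CYBA (chr16:88643289-88651054, minus strand) had 16172 and 27568 fragments in pLKO, then 282 in shFABP4 1 and 5942 in shFABP4 2. As CPM this was 1799 and 1992 against 111 (98.5 to 125) and 291 (283 to 298). Again both shFABP4 libraries lay below, as for 15.9% of all tested genes on plain CPM, with shFABP4 1 the lower of the pair. Background predicts 61.4 of its fragments in shFABP4 1. The TMM-scaled means were 2591 ± 198 CPM (SD, n = 2) over the pLKO libraries and 204 ± 185 (SD, n = 2) over the shFABP4 libraries, for a log2 fold change of -3.66 (SE 1.32). In bulk RNA, fewer cells of a type and less RNA per cell cannot be told apart.

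GPX4 (chr19:1103926-1106791, plus strand), the other abundant selenoenzyme of the family, did not share this pattern. It had 3979 and 5956 pLKO fragments, 349 in shFABP4 1 and 12556 in shFABP4 2, or 443 and 430 CPM against 137 and 615. Here shFABP4 1 lay below and shFABP4 2 above both pLKO libraries. The fitted log2 fold change was -0.58 (SE 1.21), smaller than its error.

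GPX8 (chr5:55160167-55167297, plus strand), a peroxidase of the endoplasmic reticulum whose locus lies within CDC20B without sharing an exon, had 1295 and 1788 fragments in pLKO, then 199 in shFABP4 1 and 7588 in shFABP4 2. SOD1 (chr21:31659666-31668931, plus strand) had 1498 and 2348, then 352 and 8330. Both were high in shFABP4 2 and low in shFABP4 1 as plain CPM, at 144, 129, 78.3 and 371 CPM for GPX8 and 167, 170, 139 and 408 for SOD1. Their fitted log2 fold changes were 0.36 (SE 1.14) and 0.29 (SE 1.0).

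SOD2 (chr6:159669069-159762529, minus strand) had 586 and 940 fragments in pLKO, then 143 in shFABP4 1 and 4307 in shFABP4 2, with a log2 fold change of 0.63 (SE 1.01). Its 143 fragments in shFABP4 1 compare with 91.4 predicted from background by GC content and 155.7 by exon length alone, so SOD2 cannot be placed in that library. Of its exons 2.41% are shared with WTAP, 5.18% with SOD2-OT1 and 0.733% with ACAT2, and no strand option was set in the counting. CAT (chr11:34438934-34472060, plus strand) had 157, 230, 56 and 866 fragments, 27.7 of the 56 in shFABP4 1 being predicted from background, and a log2 fold change of 0.45 (SE 0.71).

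GPX3 and GPX7 did not pass the filter on low counts. GPX3 (chr5:151020438-151028992, plus strand) had 2 and 1 pLKO fragments, 5 in shFABP4 2 and 75 in shFABP4 1, where background predicts 51.2. GPX7 (chr1:52602371-52609051, plus strand) had 7 fragments in shFABP4 1, where background predicts 17.9, and 0 elsewhere. Neither gene was detected above the level of a few fragments outside shFABP4 1.

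**Figure D2:**
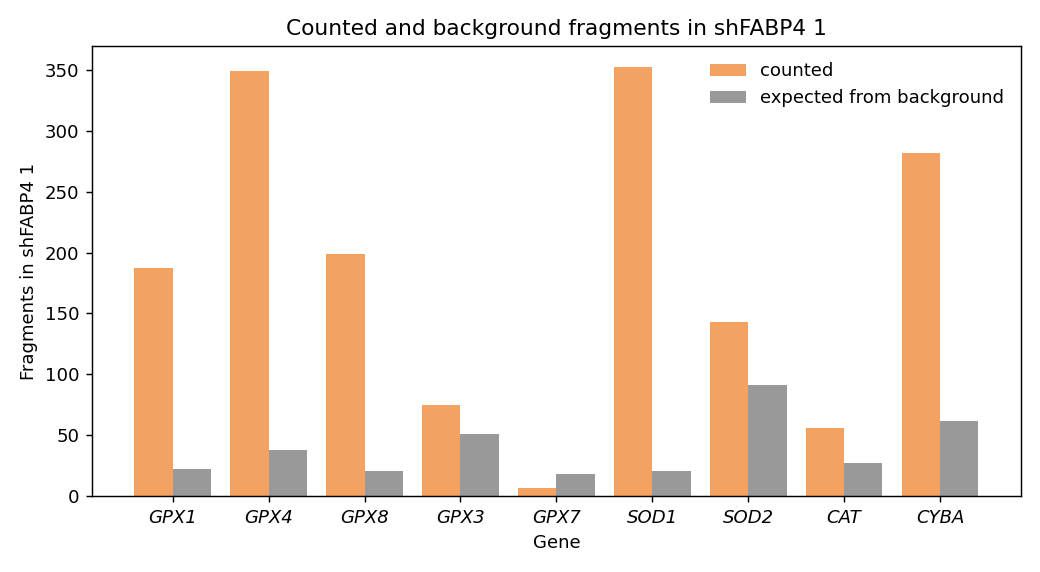
Fragments counted in shFABP4 1 (orange) and fragments expected there from the background rate at each gene's GC content and exon length (grey), for the 9 genes. GPX4, GPX8 and SOD1 lie far above the background, SOD2 at 143 against 91.4 and GPX3 at 75 against 51.2 lie close to it, and GPX7 lies under it.

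No gene passed the test across all 4 libraries. The edgeR quasi-likelihood test with Benjamini-Hochberg adjustment called 0 of 14735 genes (0%), with 1818 at an unadjusted p under 0.05 and a smallest adjusted p of 0.391, while limma-voom called 0 and DESeq2 695. With 2 libraries against 2, an exact permutation test of a single gene cannot reach 0.05. Of the 7 members tested, GPX1 and CYBA lay lower in both shFABP4 libraries than in both pLKO libraries on TMM-scaled CPM, a side that 26.1% of all tested genes shared. None lay higher, against 28.5% of all tested genes. Both shares cover genes of every level and are not matched to the level of the members. The members' count was fixed in part by the choice of these genes, and nothing is read from it.

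Where the other members stood depended on how shFABP4 1 was scaled. Scaling was repeated on 1060 abundant coding genes, chosen from the pLKO libraries alone as those whose predicted fragments in shFABP4 1 are at least 5 times the background, and the expected background was then subtracted. On that scale GPX1 was at 4859 and 4757 CPM in pLKO, 455 in shFABP4 1 and 570 in shFABP4 2. CYBA was at 2720 and 3014, then 610 and 527. GPX1 was 10.6-fold lower in shFABP4 1 and 8.44-fold lower in shFABP4 2 than the pLKO mean, and CYBA 4.70-fold and 5.44-fold lower, so that the shFABP4 libraries came close to each other.

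On the same scale GPX4, GPX8, SOD1 and CAT lay above both pLKO libraries in both shFABP4 libraries, and so did SOD2 with the background by GC content, but not with that by length, which leaves it no fragments in shFABP4 1. GPX4 was at 669 and 651 in pLKO against 859 and 1114, and GPX8 at 218 and 195 against 494 and 673. SOD1 was at 252 and 257 against 915 and 739. These 3 genes lie in the abundant set, with log2 fold changes of 0.54 (SE 0.22), 1.46 (SE 0.26) and 1.60 (SE 0.12) under its scaling, where GPX1 was at -3.26 (SE 0.23) and CYBA at -2.30 (SE 0.18). CAT, outside the set, was at 26.4 and 25.1 against 78.3 and 76.8, and SOD2 at 98.6 and 103 against 142 and 382. The 78.3 of CAT rests on 56 fragments, 27.7 of them predicted from background. Since the spread of background between genes was not worked out, the place of CAT in shFABP4 1 is uncertain. Among all tested genes 12.2% lay below and 44.7% above on this scale, so lying above was common.

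**Figure D3:**
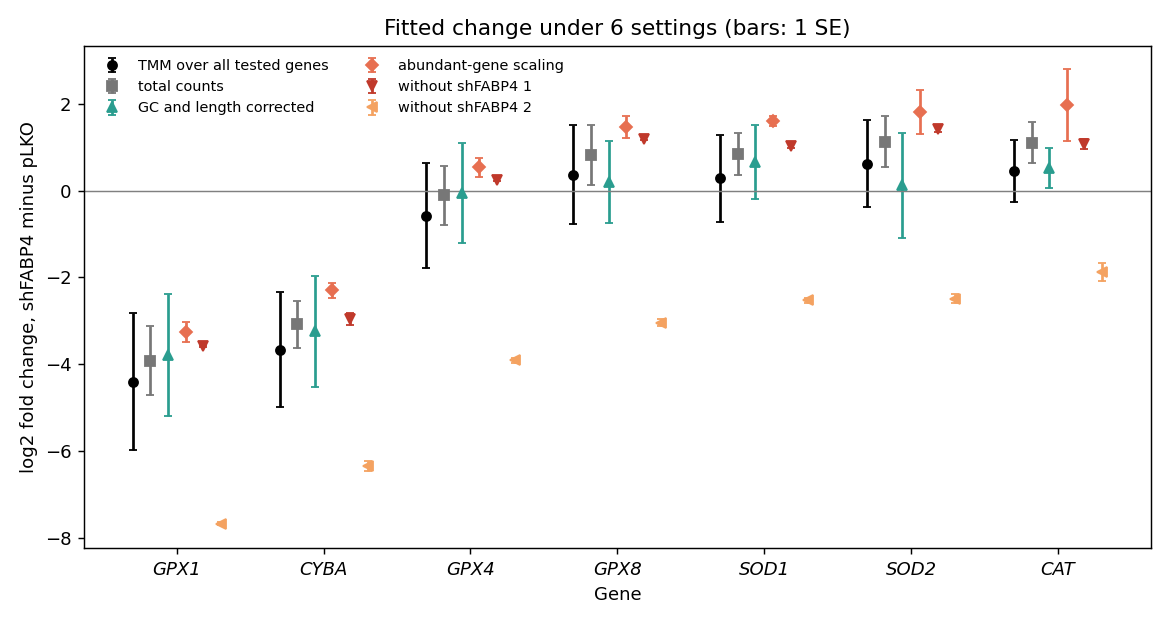
Fitted log2 fold change (shFABP4 minus pLKO, bars of 1 SE) of the 7 tested genes under 6 settings of scaling or library choice. GPX1 and CYBA lie below 0 under all 6, while the other 5 genes lie below 0 without shFABP4 2 and above 0 without shFABP4 1.

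Leaving out a library of the knockdown group moved every member's value. Without shFABP4 1 the log2 fold changes were -3.58 for GPX1, -2.95 for CYBA, 0.25 for GPX4, 1.20 for GPX8, 1.03 for SOD1, 1.42 for SOD2 and 1.07 for CAT. Without shFABP4 2 they were -7.68, -6.34, -3.91, -3.04, -2.53, -2.49 and -1.87 in the same order. GPX1 and CYBA kept their sign in 16 of 16 alternatives, and the remaining 5 changed sign in at least 1.

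Ratios between members within a library do not depend on the scaling. GPX4 was taken as the reference for its abundance and its place in the GPX family, with its values known. In pLKO there were 7.26 and 7.31 GPX1 fragments for each GPX4 fragment, against 0.536 in shFABP4 1 and 0.511 in shFABP4 2. The ratio was 13.6-fold and 14.2-fold lower, and both shFABP4 libraries gave nearly the same value. How close they lay depended on the reference. GPX1 was at 0.940 and 0.846 for each GPX8 fragment, but at 0.531 and 0.771 for each SOD1 and 3.34 and 7.42 for each CAT fragment. GPX1 was chosen with its values known, so the closeness is a description only. With background subtracted, shFABP4 1 stood at 0.530. The mean log2 change of the ratio was -3.80, with an SD of 0.05 between the shFABP4 libraries (n = 2).

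CYBA had 4.06 and 4.63 fragments for each GPX4 fragment in pLKO, 0.808 in shFABP4 1 (0.710 with background subtracted) and 0.473 in shFABP4 2. Its mean log2 change was -2.81, with an SD of 0.55 between the shFABP4 libraries (n = 2). Both shFABP4 libraries lay below both pLKO libraries for these 2 ratios, as they did for 6.72% of the genes tested.

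The ratios of GPX8, SOD1, SOD2 and CAT to GPX4 lay higher in both shFABP4 libraries, as 38.3% of the genes tested did. GPX8 was at 0.326 and 0.300 in pLKO, 0.570 in shFABP4 1 and 0.604 in shFABP4 2. SOD1 was at 0.377 and 0.394, then 1.01 and 0.663, so that it matched GPX4 in shFABP4 1. SOD2 was at 0.147 and 0.158, then 0.410 and 0.343, but in shFABP4 1 it stood at 0.166 once background by GC content was subtracted, and background by length alone left it no fragments. CAT was at 0.0395 and 0.0386, then 0.160 (0.0911 with background subtracted) and 0.0690. With only 56 CAT fragments in shFABP4 1, 27.7 of them predicted from background, its value there is uncertain.

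**Figure D4:**
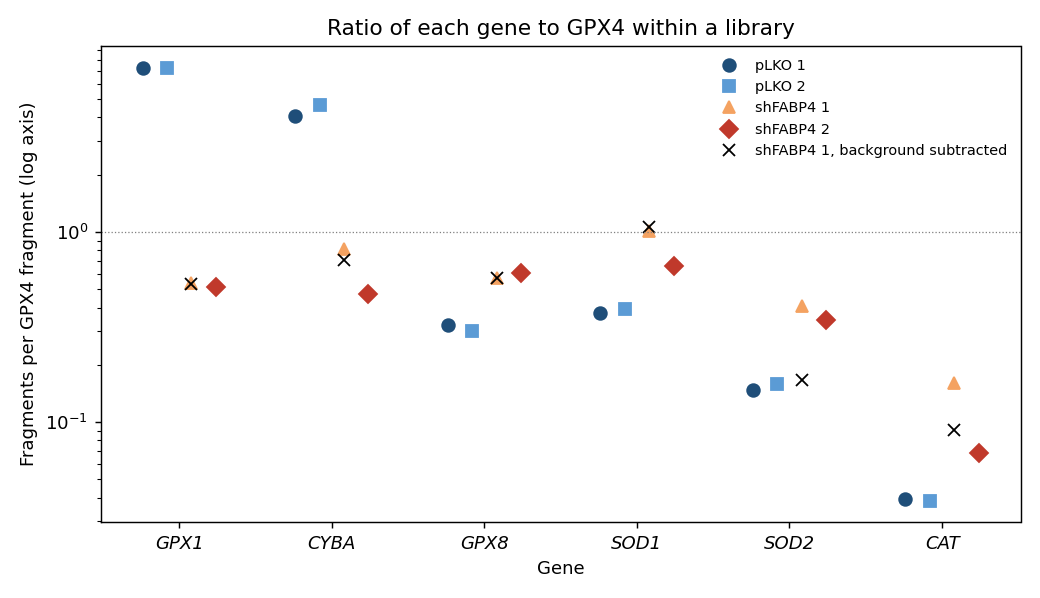
Fragments of each gene for each GPX4 fragment (log axis) in the 4 libraries, with crosses for shFABP4 1 after subtraction of background. GPX1 moves from above 7 in pLKO to 0.536 and 0.511 in the shFABP4 libraries, and the cross of SOD2 at 0.166 lies close to its pLKO values of 0.147 and 0.158.

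GPX1 also lay lower relative to SOD1 and GPX8, a result fixed in part by the choice of these genes. The share of all tested genes was not worked out for references besides GPX4. For each SOD1 fragment there were 19.3 and 18.5 of GPX1 in pLKO, 0.531 in shFABP4 1 and 0.771 in shFABP4 2. For each GPX8 fragment there were 22.3 and 24.3, then 0.940 and 0.846. GPX1 was also lower relative to CYBA, at 1.79 and 1.58 in pLKO against 0.663 and 1.08. The SOD1 to GPX8 balance, by contrast, overlapped between the groups, with 0.864 and 0.762 GPX8 fragments for each SOD1 fragment in pLKO, then 0.565 and 0.911.

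The make-up of the glutathione peroxidase transcripts lay apart between the groups too. It restates the low GPX1 values rather than adding a separate result, and was fixed in part by the choice of genes. Per kb of exon, GPX1 made up 91.5% and 91.6% of the 5 family members' sum in pLKO, 38.9% in shFABP4 1 and 40.2% in shFABP4 2. GPX4 made up 7.35% and 7.31%, then 42.3% and 45.9%. GPX8 made up 1.19% and 1.10%, then 12% and 13.9%. GPX1 and GPX4 both carry the TGA codon. These shares sum to 100%, so a lower share of GPX1 raises those of the others. Over all 9 genes the sum was 5849 and 5950 CPM in pLKO, 650 in shFABP4 1 and 2252 in shFABP4 2.

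**Figure D5:**
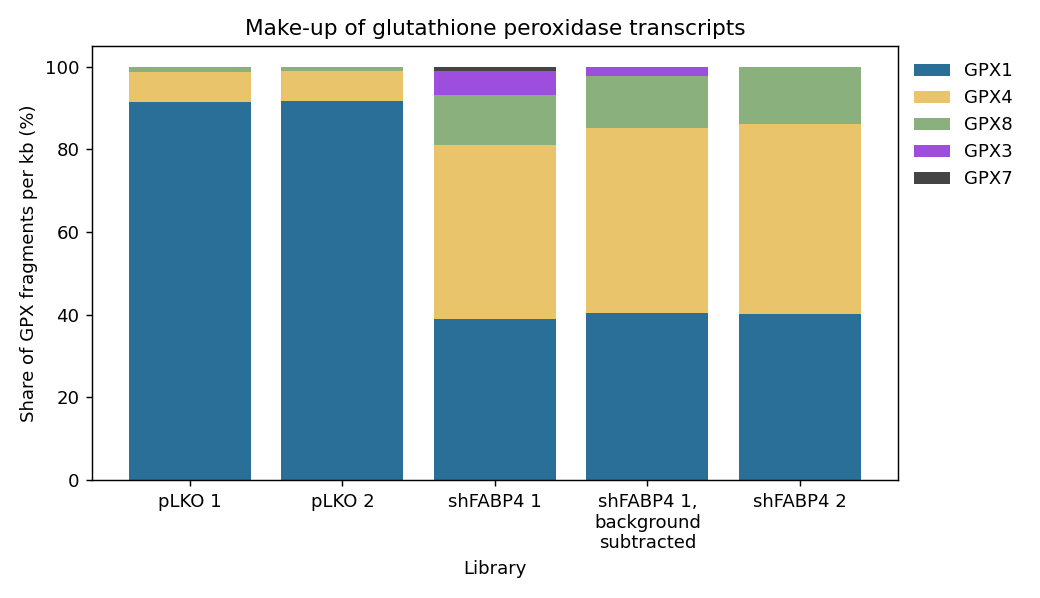
Share (%) of each glutathione peroxidase in the family's fragments per kb of exon, by library, with shFABP4 1 also shown after subtraction of background. GPX1 fills 91.5% and 91.6% of the pLKO bars and 38.9% and 40.2% of the shFABP4 bars as counted.

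Promoter sequence was examined for GPX1 and CYBA, which lay low together, beside GPX8, which did not. The lines give the 250 bases before the RefSeq start of each gene (GRCh38.p14) at chr3:49358354-49358603 (GPX1, minus strand), chr16:88651054-88651303 (CYBA, minus strand) and chr5:55159921-55160170 (GPX8, plus strand). Capitals mark GC boxes, GGGCGG or its reverse complement CCGCCC, a motif bound by SP factors.
GPX1 promoter: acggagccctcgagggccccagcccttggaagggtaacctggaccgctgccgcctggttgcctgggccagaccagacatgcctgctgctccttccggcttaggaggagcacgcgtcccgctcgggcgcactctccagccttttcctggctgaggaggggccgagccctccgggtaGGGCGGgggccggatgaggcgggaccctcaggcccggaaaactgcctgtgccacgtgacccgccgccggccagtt
CYBA promoter: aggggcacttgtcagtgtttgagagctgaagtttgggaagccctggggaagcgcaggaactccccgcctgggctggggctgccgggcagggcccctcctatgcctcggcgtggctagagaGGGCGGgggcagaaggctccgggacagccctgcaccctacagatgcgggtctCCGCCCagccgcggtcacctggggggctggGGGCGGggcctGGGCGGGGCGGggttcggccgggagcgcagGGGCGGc
GPX8 promoter: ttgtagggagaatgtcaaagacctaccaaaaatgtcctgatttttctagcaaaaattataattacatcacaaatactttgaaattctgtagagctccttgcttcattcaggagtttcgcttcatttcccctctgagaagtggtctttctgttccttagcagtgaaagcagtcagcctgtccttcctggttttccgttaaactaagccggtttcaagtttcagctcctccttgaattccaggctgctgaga

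GPX1 held 1 GC box, CYBA 6, of which a pair overlaps by a base, and GPX8 none, while 42.6% of 35116 such windows of all genes held at least 1. The GPX1 and CYBA windows were 70.8% and 73.6% GC with 20 and 18 CpG, and that of GPX8 was 41.2% GC with 3 CpG, against medians of 58% and 11. Members that did not lie low also had GC-rich windows: that of CAT was 68.8% GC and held 1 GC box, and 1 GPX4 window was 80.4% GC and held 4. The 4 windows of SOD2 held 4, 1, 6 and 1 GC boxes. Of the members with a window, GPX8 was the only one without a GC box. The E box CACGTG stood once in the GPX1 window and in 6.34% of all windows. The antioxidant response core TGACNNNGC, searched on both strands, was in none of the windows of the 8 members that have one in the table, and in 10.9% of all windows.

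The genes whose 4 values most resembled those of GPX1 were ANGPTL4, EIF5A and RP11-832N8.1, at Euclidean distances of 0.349, 0.457 and 0.474 in centred log2 CPM among 6711 genes with at least 100 fragments in each pLKO library. ANGPTL4, a secreted inhibitor of lipoprotein lipase, had 16104, 24961, 94 and 2702 fragments in the order pLKO 1, pLKO 2, shFABP4 1 and shFABP4 2. Among the genes nearest to CYBA were SNHG9 (0.237) and MT2A (0.263). MT2A, a metallothionein that binds zinc and copper, had 141459, 214748, 1931 and 43423 fragments. Nearest to SOD2 were RPL6 (0.0675), KIF5B (0.0847) and DPY30 (0.0866). These distances are over 4 libraries that share the background of shFABP4 1.

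CYBA was high in pLKO although the oxidases it is known to serve were barely present. CYBB, the phagocyte oxidase, had 2 and 7 pLKO fragments, 11 in shFABP4 1 (22.1 predicted from background) and 7 in shFABP4 2. NOX1 had 5, 6, 3 and 3, and NOX4 had 0 in pLKO and shFABP4 2 and 62 in shFABP4 1, where background predicts 23.2. The organiser subunits NCF1 and NOXO1 were at 0 outside shFABP4 1. Leukocyte markers were near 0 too, with PTPRC at 0, 2 and 0 and CSF1R at 0, 0 and 4 fragments in pLKO 1, pLKO 2 and shFABP4 2, while ITGAM (25 and 21) and CD14 (20 and 36) were the leukocyte markers with at least 20 fragments in both pLKO libraries, and the 6 markers together stood at 4.48 to 5.01 CPM in these libraries. In shFABP4 1 the 6 markers summed to 373 fragments, with 249 predicted from background. CYBC1, the chaperone of the CYBA and CYBB pair, had 1603, 2475, 228 and 2620 fragments in the order pLKO 1, pLKO 2, shFABP4 1 and shFABP4 2. RAC1, the GTPase that activates several oxidases, was abundant at 2155, 3355, 216 and 13117, and the activator NOXA1 had 84, 97, 203 and 1063.

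Of 126 genes in 9 related pathway lists, 95 were tested and 0 were called with all 4 libraries. On TMM-scaled CPM 45 of the 95 (47.4%) lay below in both shFABP4 libraries and 15 (15.8%) above, against 26.1% and 28.5% of all tested genes. With abundant-gene scaling and subtraction 18 (18.9%) lay below and 32 (33.7%) above, against 12.2% and 44.7%. The same shares of all tested genes stand beside the counts of each list below. They are not matched to the level of the list genes. Genes counted as above include some that passed the low-count filter only through the shFABP4 libraries, such as DUOX2. Among the 1060 abundant genes the edgeR test called 237 (22.4%), and among the 19 list genes there it called 4 (21.1%), a share close to that of the whole set. At 2 times background the set called 0 of 2172.

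The other selenoproteins had 16 tested genes, 12 of them below on TMM-scaled CPM and 4 after subtraction, against 26.1% and 12.2% of all tested genes. Their median log2 fold change was -1.0 against 0.34 for all genes. These comparisons cover genes of every level, so nothing is read from them. SELENOW, a small redox protein, had 5393 and 8460 fragments in pLKO, then 176 in shFABP4 1 and 1345 in shFABP4 2. SELENOM, a thioredoxin-like protein of the endoplasmic reticulum, had 3485, 5342, 121 and 2893, and fell by 1.14 on the log2 scale among the abundant genes (SE 0.12, adjusted p = 0.0249, edgeR). MSRB1, which repairs oxidised methionine, had 1512, 2361, 186 and 1622. Of the other selenoproteins 6 lie in the abundant set and 1 was called there, against 22.4% of that set. SELENOW stood there at -1.89 (log2, SE 0.66) and MSRB1 at 0.09 (SE 0.58). The median of all genes in that set was -0.05. The 8 genes of selenocysteine synthesis and insertion had 2 below and 2 above on TMM-scaled CPM, and 1 and 4 after subtraction, and EEFSEC, the selenocysteine elongation factor, had 319, 511, 67 and 725 fragments.

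Genes of glutathione synthesis, recycling and transfer had 20 tested members, 9 below and 1 above on TMM-scaled CPM but 2 below and 7 above after subtraction. GSTP1, which conjugates glutathione to electrophiles, had 12894, 20256, 495 and 12528 fragments and fell by 0.97 (log2, SE 0.13, adjusted p = 0.0271, edgeR) among the abundant genes. GSTO1, a related transferase, had 6665, 10090, 409 and 16442, and its value there was 0.12 (SE 0.27). GSS, glutathione synthetase, had 2072, 3071, 220 and 1215.

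Metal supply and peroxisomal import had 11 tested genes, 7 below and 2 above on TMM-scaled CPM, and 4 and 2 after subtraction. ATOX1, the copper chaperone, had 5762, 9040, 154 and 4505 fragments and fell by 1.37 (log2, SE 0.13, adjusted p = 0.0240, edgeR) among the abundant genes. CCS, which loads copper into SOD1, had 979, 1488, 88 and 1667, and SLC25A39, a mitochondrial glutathione carrier, had 2751, 4283, 341 and 4290. Among the abundant genes SLC25A39 stood at 0.29 (log2, SE 0.39). The oxidative folding list had 5 of 10 tested genes below and 1 above on TMM-scaled CPM, and 2 and 4 after subtraction. In it VKORC1, the vitamin K epoxide reductase, had 3530, 4888, 114 and 2092 fragments and fell by 1.36 (log2, SE 0.22, adjusted p = 0.0330, edgeR). PDIA4, a disulfide isomerase, had 1699, 2597, 99 and 3868, and its value among the abundant genes was 0.02 (log2, SE 0.25).

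Ferroptosis genes, which bear on the role of GPX4, had a median log2 fold change of 0.00 over 9 tested members, 4 below and 1 above on TMM-scaled CPM, and 3 and 5 after subtraction. SLC3A2, a subunit of the cystine importer, had 6202, 9242, 383 and 7605 fragments, and AIFM2, a quinone reductase that acts beside GPX4, had 1854, 2857, 164 and 3066. NF-kappaB targets, a group that includes SOD2 in many cells, had 9 tested members, 4 below and 2 above on TMM-scaled CPM, and 2 and 3 after subtraction. NFKBIA, the inhibitor itself, was at 742, 1105, 119 and 3291 fragments and the subunit NFKB2 at 2363, 3441, 326 and 2446. Of the other peroxidases, PXDN, which crosslinks collagen, was the abundant member at 519, 847, 461 and 5176, and GPX2 and GPX5 were at 0 outside shFABP4 1. The NADPH oxidase list had 10 tested genes, 2 below and 4 above on TMM-scaled CPM, and 0 and 4 after subtraction. Several of these were low genes with counts near background in shFABP4 1, such as DUOX2 at 3, 2, 195 and 26 fragments with 156.4 predicted there. DUOX2 passed the low-count filter only through the shFABP4 libraries, where it was high. The count above was thus fixed in part by the filter, and nothing is read from it.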

How the data were processed

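The 4 RNA-seq libraries of Daoy cells, 2 per group, were grouped by the sample labels. Per the labels' protocols, mRNA was captured with beads and fragmented with Tn5. The file deposited by the authors holds unnormalised fragment counts for each gene name, from featureCounts 2.0.0 over GENCODE 38 exons with no strand option, per the file headers. The submitters' processing notes name FastQC, HISAT, StringTie and GRCh38. ANK2 was left out, its row being broken over 7 lines.

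The members and lists were chosen with earlier results of these data known. The main test was edgeR 4.0.16 under R 4.3.3, a two-sided robust quasi-likelihood F test with TMM scaling, filterByExpr (at least 10 counts, 15 in total) and Benjamini-Hochberg adjustment at 0.05, with limma 3.58.1 and DESeq2 1.42.0 as alternatives. The procedure was tested on simulated data in which no library had a background of its own, so that test does not cover a library like shFABP4 1. Background in shFABP4 1 came from 2761 coding genes in 6 bins of GC content (GENCODE 29). Alternatives covered scaling, low-count filters, GC content and length, a replicate block and each library left out, and the GPX4 ratios were added after seeing the data. Counts of the pLKO pair were further apart than sampling noise (a chi-square of 2.06 per degree of freedom, 15446 genes), so both were kept.

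Named genes were the 9 members, FABP4, up to 3 tested genes per list with the highest pLKO level per kb, list genes called in the fit of all 4 libraries, list genes at or near 0, and the 3 nearest genes to GPX1, CYBA and SOD2. NOXA1, DUOX2 and the marker genes were named after their values were seen. An item that this rule names is not reported here. Codon windows were read from GENCODE 29 transcripts and promoters from RefSeq.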

Additional observations from a re-analysis of the deposited data

How the results depend on the processing

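GPX1 and CYBA kept their direction in all 16 alternatives of the fit, and the count of members below in both shFABP4 libraries was 2 under all 6 scalings, while the share of all tested genes below ran from 4.16% with abundant-gene scaling to 28.1% with RLE. The count of members above was 0 with TMM, 1 with plain CPM (43.3% of all tested genes lay above there), and 5 with abundant-gene scaling (63.7%), also with background by GC content subtracted (44.7%). SOD2 is among the 5, and subtraction by length leaves it no fragments in shFABP4 1. CAT is among them too, with 56 fragments in shFABP4 1 against 27.7 predicted from background. Genes called were 0 with all 4 libraries, 237 among abundant genes at 5 times background, 166 at 10 times, 69 with no filter on low counts, 695 with DESeq2 and 28 with the replicate block, and 0 to 23895 with each library left out (0 without either pLKO library, 10242 without shFABP4 1, 23895 without shFABP4 2). List genes called were 0, then 4 at 5 times, 3 at 10 times, 7 with DESeq2 and 0 to 110 with each library left out. GPX4 changed sign with abundant genes at 5 times (0.54), 2 times (0.38) and 10 times (0.69) background, and ranged from -3.91 to 0.25 with each library left out. GPX8 changed sign in limma-voom (-0.97) and with the replicate block (-0.32), SOD1 likewise (-0.62 and -0.14), and SOD2 in limma-voom (-0.48). With each library left out GPX8 ranged from -3.04 to 1.20, SOD1 from -2.53 to 1.03, SOD2 from -2.49 to 1.42 and CAT from -1.87 to 1.07. The cause was not tested. The median log2 fold change of all genes was 0.34 with TMM, 0.26 with RLE, 0.57 with upper-quartile scaling, 1.30 with total counts and -0.05 in the abundant set, and single values stand relative to it. The correlation of deviations between libraries of the same replicate number was 0.01. It cannot decide whether these numbers pair the samples, since the background of shFABP4 1 enters it. Depth limits shFABP4 1 most: a count of 0 allows up to 1.18 CPM there and 0.147 in shFABP4 2. With shFABP4 1 or 2 left out, the lone library is assumed to vary like the pLKO libraries.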
